A study of Mus musculus with 4 samples.

Results

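The last steps of mitochondrial respiration were examined through 42 nuclear genes that encode subunits of complex III, complex IV and ATP synthase, of 18193 genes measured in mouse heart RNA. The members were the genes with a probe set of exactly 1 gene symbol whose symbol starts with Cox4, Cox5, Cox6, Cox7, Cox8, Uqcr or Atp5, and each was read by its brightest probe set, the one with the highest mean log2 intensity over the arrays. They comprised 8 genes of complex III, 17 of complex IV and 17 of ATP synthase, and 26 of the 42 had more than 1 probe set, 82 probe sets in all. The rule used names and brightness, and no difference between arrays. RNA from hearts of adult C57BL/6J mice was hybridised to 4 Affymetrix arrays, which report 1 fluorescence intensity per probe set. The 2 arrays labelled Rhau KO came from mice of genotype CAAG-ERT2-Cre;Rhau F/F, in which a tamoxifen-activated Cre recombinase deletes the floxed Rhau (Dhx36) gene. The 2 arrays labelled Control came from Rhau F/F littermates that carry the floxed alleles without the Cre. Tamoxifen was given to both groups as 5 doses at 2 months of age, and hearts were taken 2 months later, so tamoxifen itself does not separate the groups. Deletion was thus induced chemically in the adult, and the sources used here name no cardiomyocyte promoter for this Cre line. The sources do not say whether each array held RNA of 1 heart or of several, nor that replicates came from separate mice, and p-values here cover only how far these arrays differ, which may be technical.

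Complex III passes electrons from ubiquinol to cytochrome c, complex IV (cytochrome c oxidase) passes them to oxygen, and both pump protons across the inner mitochondrial membrane. ATP synthase lets the protons flow back through its membrane part and uses their passage to make ATP in its catalytic head. Several small subunits of complex IV exist as a muscle form, which largely replaces the ubiquitous form in adult heart and skeletal muscle of the mouse. Those pairs are Cox6a2 and Cox6a1, Cox7a1 and Cox7a2, and Cox8b and Cox8a, with the muscle form named first in each. Mitochondrial DNA encodes the catalytic core of complex IV, and 0 of the 6 mitochondrial genes looked for (3 complex IV subunits, cytochrome b and 2 ATP synthase subunits) had a probe set under their symbols.

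Array labels went against marker genes in 2 ways before any member was read. Dhx36, the targeted helicase gene, read 568 and 537 on the arrays labelled Rhau KO, 327 on Control replicate 1 and 194 on Control replicate 2. Its log2 difference of 1.13 (SE 0.36, n = 2 arrays per group, adjusted p = 0.873 by limma) ran opposite to the deletion that the label names. The paper reports effective RHAU deletion in hearts of this line by Western blot, which reads protein and not the RNA on these arrays. Whether the Dhx36 probe set lies in the deleted part of the gene was not checked. Control replicate 1 also read low for most markers of heart muscle and high for most of skeletal muscle. Tnni3, cardiac troponin I, read 39371 and 37838 on the arrays labelled Rhau KO, 38930 on Control replicate 2 and 10.3 on Control replicate 1. Myh4, a fast skeletal myosin, read 71.6, 5.76 and 80.4 on those 3 arrays and 43654 on Control replicate 1. Of 11 cardiomyocyte markers, 8 were at least 2-fold lower on Control replicate 1 than the mean log2 of the other 3 arrays, the rule for all such counts. The summed intensity of the 11 was 87535 there against 400617 to 418501. Myl2, Myl3 and the dim Myl7 were not among the 8. Myl2 read 37359 there against 40197 to 44161 and Myl3 37087 against 48658 to 50786. Actc1, among the 8, still read 12364 there. Of 12 fast skeletal markers, 10 were at least 2-fold higher there, with a sum of 502297 against 48094 to 63740. The other 2 were bright on every array: Acta1 read 35886 there against 16893 to 33406, and Ckm 39279 against 29873 to 31305. Over all genes, 18.0% were at least 2-fold lower on Control replicate 1, and the share at least 2-fold higher was not counted. All 4 endothelial markers were at least 2-fold lower on it, with a sum of 2060 against 5807 to 6447. Of 5 brown adipocyte markers, 3 were at least 2-fold higher and 2 at least 2-fold lower on it, with a sum of 3303 against 8543 to 10560. Ucp1, the defining gene of brown fat, read 7.92 there and 3.26 to 3.97 on the others. Elovl3, also among the higher, read 33.3 there, 32.5 and 2.47 on the arrays labelled Rhau KO and 51.8 on Control replicate 2, so these 2 dim genes weaken the count. Of 3 adipocyte markers, 2 were at least 2-fold higher on it, among them Adipoq, the adiponectin gene, at 911 against 3.93 to 164, with a sum of 1324 against 17.7 to 299. Values are therefore given by array label, and Control replicate 1 is shown apart throughout. In these bulk samples fewer cells of a type and less RNA per cell cannot be told apart.

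Short stretches of promoter are shown for 3 of the isoform genes, since the paired isoforms differed in how they read on Control replicate 1. RefSeq promoter windows (mouse build GRCm38.p6, 250 bases before to 50 after the gene start) were found for 32 of the 42 members, and 3 of these had more than 1 window. Both strands were searched for CCGGAAG, the core bound by ETS factors such as GABP, for GCGC, any 2 bases and GCGC, the core bound by NRF1, and for CAGCTG, a muscle E-box. Capitals mark the match, and each sequence is written 5′ to 3′ on the strand of its gene, the minus strand in all 4 stretches.
Cox8a, ETS match that starts 5 bases before the gene start, chr19:7217605-7217631: ttccgaaataCTTCCGGctcgggcgtc
Cox6a1, ETS match that starts 16 bases before the gene start, chr5:115348958-115348984: cccatttccgCTTCCGGcgcgccggtg
Cox6a1, NRF1 match that starts 162 bases before the gene start, chr5:115349102-115349129: aggaacgggGCGCATGCGCgctctcgct
Cox8b, E-box match that starts 19 bases before the gene start, chr7:140900449-140900476: gtgacaggagaCAGCTGcagctctccac
Each of these genes also held a further match that is not printed. For Cox6a1 it was an NRF1 match that starts 117 bases before the gene start. For Cox8a it was an ETS match 32 bases after the start, and for Cox8b an E-box 16 bases after it. Of the 6 pair genes 5 were searched, without Cox6a2, so the letters give no contrast between the forms of subunit 6a. ETS letters were found for the ubiquitous genes Cox6a1 and Cox8a, NRF1 letters for Cox6a1 and the E-box for the muscle gene Cox8b, while the windows of Cox7a1 and Cox7a2 held no match. Over all members searched, the ETS core was found for 11 of 32 genes and in 8.86% of the 32851 mouse promoter windows, and the NRF1 core for 8 of 32 genes and in 6.23% of windows. The E-box was found for 2 of 32, Cox8b and Atp5b, and in 16.3% of windows. AAGGTCA, the core bound by estrogen-related receptors, was found for 4 of 32 and in 4.72% of windows, and CTA, any 4 bases and TAG, the core bound by MEF2, for 1 of 32 (Cox5b) and in 3.69%. These matches are letters in a window and not sites shown to be bound.

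On their brightest probe sets, the muscle isoforms Cox6a2 and Cox8b differed little between arrays, Control replicate 1 included, whereas their ubiquitous partners were lower on that array. Cox6a2, the muscle form of subunit 6a, read 34106 and 34177 on the arrays labelled Rhau KO, 32036 on Control replicate 1 and 35614 on Control replicate 2. Cox6a1, its ubiquitous partner, read 20719, 18405, 10533 and 21803 in the same order. On Control replicate 1 the other 3 arrays exceeded Cox6a2 by 1.08-fold and Cox6a1 by 1.92-fold. For subunit 8 the gap was wider. Cox8b, the muscle form, read 36507 and 35755 on the arrays labelled Rhau KO, 34300 on Control replicate 1 and 37866 on Control replicate 2. Cox8a, the ubiquitous form, read 8779, 8136, 2565 and 10697. The mean of the other 3 arrays was 1.07 times Control replicate 1 for Cox8b and 3.56 times for Cox8a, and 4.34% of the 9097 brighter genes (mean log2 intensity at or above the median of all genes) were lower on that array by at least as much as Cox8a. For Cox6a1 that share was 15.4%. Cox6a2 and Cox8b ranked 47 and 37 of all genes in brightness and Cox6a1 and Cox8a 212 and 687, so a given change in RNA may not read as the same change on these probe sets, and the part of brightness in the contrast was not tested. The lower Cox6a1 and Cox8a values thus stood on the array on which most fast skeletal markers were high. Endothelial markers and most cardiomyocyte markers were low on it, and the part of either in the Cox6a1 and Cox8a values was not tested.

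**Figure D1:**
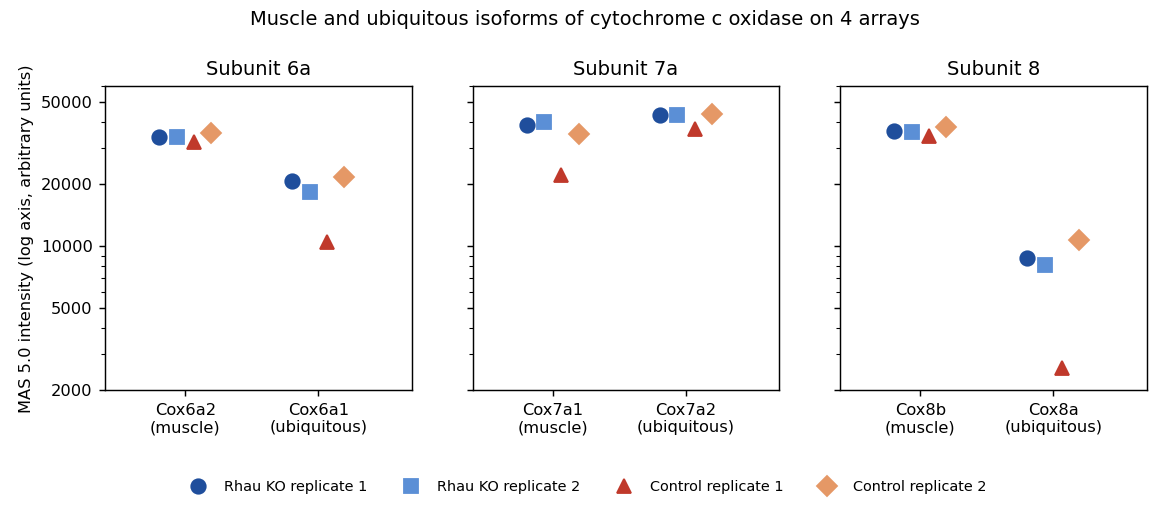
MAS 5.0 intensity (log axis) of the muscle and the ubiquitous isoform of subunits 6a, 7a and 8 of complex IV, 1 point per array; heights of different genes are not comparable, since probe sets differ in response. Control replicate 1 lies below the other 3 arrays for Cox6a1 (10533), Cox7a1 (22304) and Cox8a (2565) and close to them for Cox6a2 (32036) and Cox8b (34300).

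Subunit 7a went the other way. Cox7a1, the muscle form, read 39089 and 40182 on the arrays labelled Rhau KO, 22304 on Control replicate 1 and 35081 on Control replicate 2. Cox7a2, the ubiquitous form, read 43334, 43462, 37033 and 43917. Here the muscle form was the lower one on Control replicate 1, by 1.71-fold against the other 3 arrays, while Cox7a2 was lower by 1.18-fold, and 19.9% of the brighter genes were lower there by at least as much as Cox7a1. Both arrays labelled Rhau KO exceeded both Control arrays for Cox7a1, with a log2 difference of 0.50 (SE 0.29, n = 2 per group, adjusted p = 0.873 by limma), which did not pass the test. Against Control replicate 2 alone the difference was 0.18 on the log2 scale, or 1.13-fold.

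The log2 intensity of the muscle form minus that of the ubiquitous form was then followed from array to array. Its level has no meaning across probe sets, but its change between arrays does not depend on any scaling of a whole array. Cox6a2 minus Cox6a1 was 0.72 and 0.89 on the arrays labelled Rhau KO, 1.60 on Control replicate 1 and 0.71 on Control replicate 2. Cox8b minus Cox8a was 2.06, 2.14, 3.74 and 1.82, and Cox7a1 minus Cox7a2 was -0.15, -0.11, -0.73 and -0.32. On Control replicate 1 the first difference stood 0.83 above the mean of the other 3 arrays, that of subunit 8 stood 1.74 above it and that of subunit 7a stood 0.54 below it (-0.54). Those 3 arrays spanned 0.19, 0.31 and 0.21 for subunits 6a, 8 and 7a. Between groups the change, Rhau KO minus Control, was -0.35 for subunit 6a (SD 0.12 in Rhau KO and 0.63 in Control, two-sided exact permutation p = 1, n = 2 per group) and -0.69 for subunit 8 (SD 0.06 and 1.36, exact permutation p = 1). For subunit 7a it was 0.40 (SD 0.03 and 0.29, exact permutation p = 0.333, the smallest that 2 arrays against 2 allow). Control replicate 1 set the sign for subunits 6a and 8, since against Control replicate 2 alone the arrays labelled Rhau KO differed by 0.10 for subunit 6a, 0.27 for subunit 8 and 0.19 for subunit 7a.

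**Figure D2:**
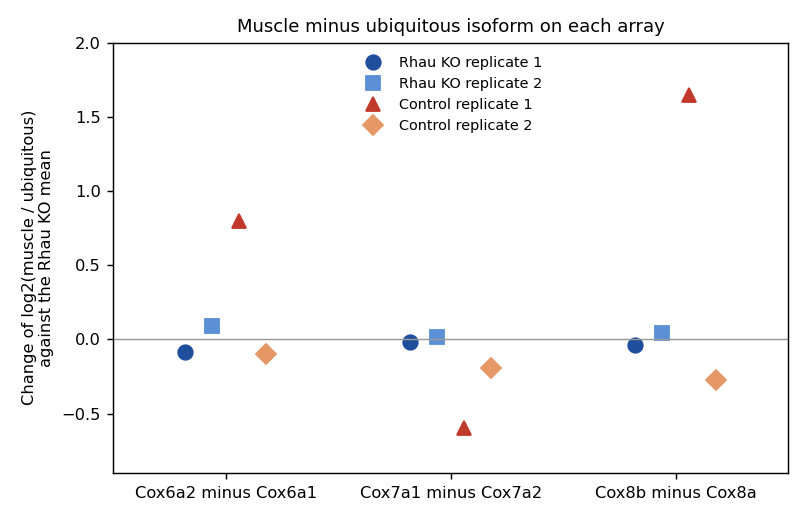
Log2 ratio of muscle to ubiquitous isoform on each array, as the change from the mean of the 2 arrays labelled Rhau KO (y axis, log2 units), for subunits 6a, 7a and 8. Control replicate 1 is the farthest array for each pair, above the others for Cox6a2 minus Cox6a1 and Cox8b minus Cox8a and below them for Cox7a1 minus Cox7a2.

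Further probe sets of the same genes gave the same order on Control replicate 1. The second probe set of Cox6a1 read 7198 and 6567 on the arrays labelled Rhau KO, 2454 on Control replicate 1 and 8650 on Control replicate 2, a gap of 3.02-fold to the other 3 arrays against 1.92-fold on the brightest one. The second of Cox8a read 8081, 7262, 2157 and 9887, and the third was dim at 86.6, 79.8, 38.0 and 50.6. All probe sets of these ubiquitous genes were thus lowest on Control replicate 1. The second probe set of Cox7a2 read 32693, 32176, 22120 and 31920, a gap of 1.46-fold against 1.18-fold, so that Cox7a1 minus Cox7a2 was 0.23 below the other 3 arrays on Control replicate 1 with it (-0.23) in place of the 0.54 above. Cox6a2 had a second probe set that did not repeat well, at 16174 and 32644 on the 2 arrays labelled Rhau KO, 24000 on Control replicate 1 and 29530 on Control replicate 2.

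The isoforms known from other tissues read at most 393 on any array. Cox4i2, the hypoxia-responsive form of subunit 4 that lung expresses, read 122 and 84.8 on the arrays labelled Rhau KO, 61.0 on Control replicate 1 and 105 on Control replicate 2. Cox6b2, a testis form, read 64.0, 92.6, 45.9 and 58.8. For scale, 51.8% to 54.0% of probe sets on an array read under 100. Cox7b2, another testis form, read 62.2, 129, 2.98 and 110, and Cox8c, the testis form of subunit 8, read 393, 285, 226 and 297, which is above the median brightness of all genes. The spread between the 2 arrays labelled Rhau KO was wide for these genes, 2.07-fold for Cox7b2, and no difference between groups passed the test. Cox4i1, the ubiquitous form of subunit 4, which spans the membrane, read 46141, 46380, 37617 and 46115. Cox6b1, the ubiquitous form of subunit 6b, which faces the intermembrane space, read 46912, 47246, 38980 and 49076. Both were lowest on Control replicate 1, by 1.23-fold each. Cox7a2l read 8298, 9593, 6860 and 9381. Cox7b had no probe set of its own under that symbol. Of the subunits with a single gene, Cox5a, Cox5b and Cox6c ranged from 35795 to 43350 over the 4 arrays. The brighter of 2 probe sets of Cox7c read 377, 296, 270 and 328. Probe sets differ in response, so these values do not show that Cox7c has less RNA than the others.

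Complex III read evenly on 3 arrays and lower on Control replicate 1. Uqcrq, a small subunit of the complex, read 24666 and 24015 on the arrays labelled Rhau KO, 18096 on Control replicate 1 and 21828 on Control replicate 2. Uqcrc1 and Uqcrc2, the core proteins that face the matrix, read 29797, 28954, 22062 and 28492, and 37571, 38836, 30061 and 37138. Uqcrh, the hinge protein that binds near cytochrome c1, read 32435, 31310, 23128 and 33922. For the first 3 of these both arrays labelled Rhau KO lay above both Control arrays, as for 21.7% of all genes and 39.7% of the 151 other genes among the brightest 1%. For Uqcrh, Control replicate 2 was the highest array. The genes named so far had the smallest unadjusted p of the complex, from 0.218 by limma for Uqcrq to 0.511 for Uqcrh, with log2 differences of 0.29 (SE 0.20) and 0.19 (SE 0.26). Since they were picked by p with all 4 arrays, their separation adds nothing to it. The complex as a whole had a median log2 difference of 0.17 with both Control arrays and 0.02 against Control replicate 2. Of the rest, Uqcrfs1, the iron-sulfur protein that hands electrons to cytochrome c1, ranged from 25793 on Control replicate 1 to 29841 on Rhau KO replicate 2. Uqcrb, a small subunit, ranged from 50328 to 56122 and Uqcr11 from 23545 to 30994, both lowest on Control replicate 1, and for all 3 the groups overlapped. Uqcr10, another small subunit, depended on the probe set. Its brightest read 17390, 17581, 15246 and 17014, whereas the second read 3263, 2678, 6829 and 2901 and the third 1466, 1039, 4859 and 1081. On Control replicate 1 the brightest was thus the lowest array and the other two were the highest, by 1.22 and 2.04 on the log2 scale.

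**Figure D3:**
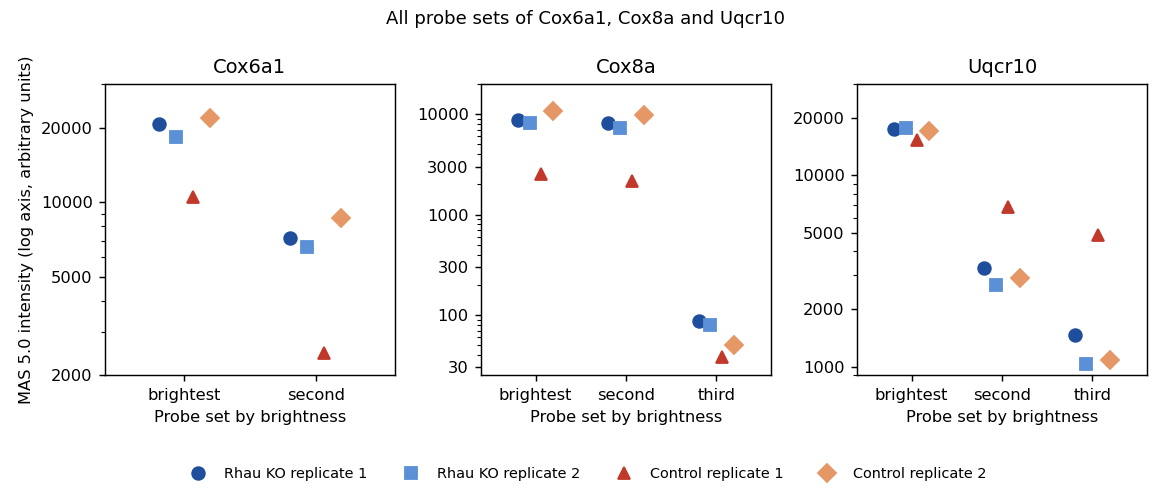
MAS 5.0 intensity (log axes, a different scale in each panel) of every probe set of Cox6a1, Cox8a and Uqcr10 on the 4 arrays, ordered by brightness. Control replicate 1 is lowest on all probe sets of Cox6a1 and Cox8a, and for Uqcr10 lowest on the brightest (15246) and highest on the second (6829) and the third (4859).

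On their brightest probe sets, ATP synthase genes varied by at most 1.19-fold, lowest to highest, over the arrays other than Control replicate 1. Atp5o, a protein of the peripheral stalk, read 35799 and 36256 on the arrays labelled Rhau KO, 24792 on Control replicate 1 and 32016 on Control replicate 2. Its second probe set varied more, at 23346, 20490, 15930 and 13666.5 in the same order, and was lowest on Control replicate 2. Atp5md and Atp5l, small subunits of the membrane part, read 35405, 34130, 25061 and 31809, and 30644, 30406, 22702 and 28169. Atp5b, the catalytic beta subunit, read 45537, 50030, 39226 and 42521. In each of these 4, the genes of the complex with the smallest unadjusted p, both arrays labelled Rhau KO lay above both Control arrays, with log2 differences of 0.35 (SE 0.22), 0.30 (SE 0.22), 0.27 (SE 0.21) and 0.22 (SE 0.20) and an adjusted p of 0.873 by limma for all 4. Since these genes were picked by p with all 4 arrays, their separation adds nothing to it, and 21.7% of all genes were separated this way. Without Control replicate 1 the differences of the 4 genes were 0.17, 0.13, 0.12 and 0.17. The c subunit, which forms the rotating ring, is encoded by 3 genes for 1 mature protein. Atp5g1 read 33683, 32891, 26506 and 32484, Atp5g2 read 16308, 16554, 15545 and 16435, and Atp5g3 read 38732, 38750, 33406 and 44620. Atp5g1 was 1.25-fold and Atp5g3 1.22-fold lower on Control replicate 1 than on the other 3 arrays, and Atp5g2 1.06-fold. Control replicate 2 was the highest array for Atp5g3 and for Atp5d, the delta subunit of the central stalk, at 28578 against 25329 and 24074. The rest of the complex was read within narrow limits. Atp5a1, the alpha subunit of the head, ranged from 29027 on Control replicate 1 to 38348 on Rhau KO replicate 2, and Atp5c1, the gamma subunit that turns inside it, from 40626 to 48405. Atp5pb, Atp5h and Atp5j of the peripheral stalk ranged from 41344 to 46775, from 36189 to 46244 and from 25772 to 31557. Atp5j2, Atp5k and Atp5mpl of the membrane part ranged from 30096 to 36385, from 23287 to 28139 and from 12831 to 14819, and Atp5e of the central stalk from 23623 to 25753. Each of these was lowest on Control replicate 1. Over the 17 genes the log2 value on Control replicate 1 minus the mean of the other 3 arrays ran from -0.48 (Atp5o) to -0.06 (Atp5e).

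**Figure D4:**
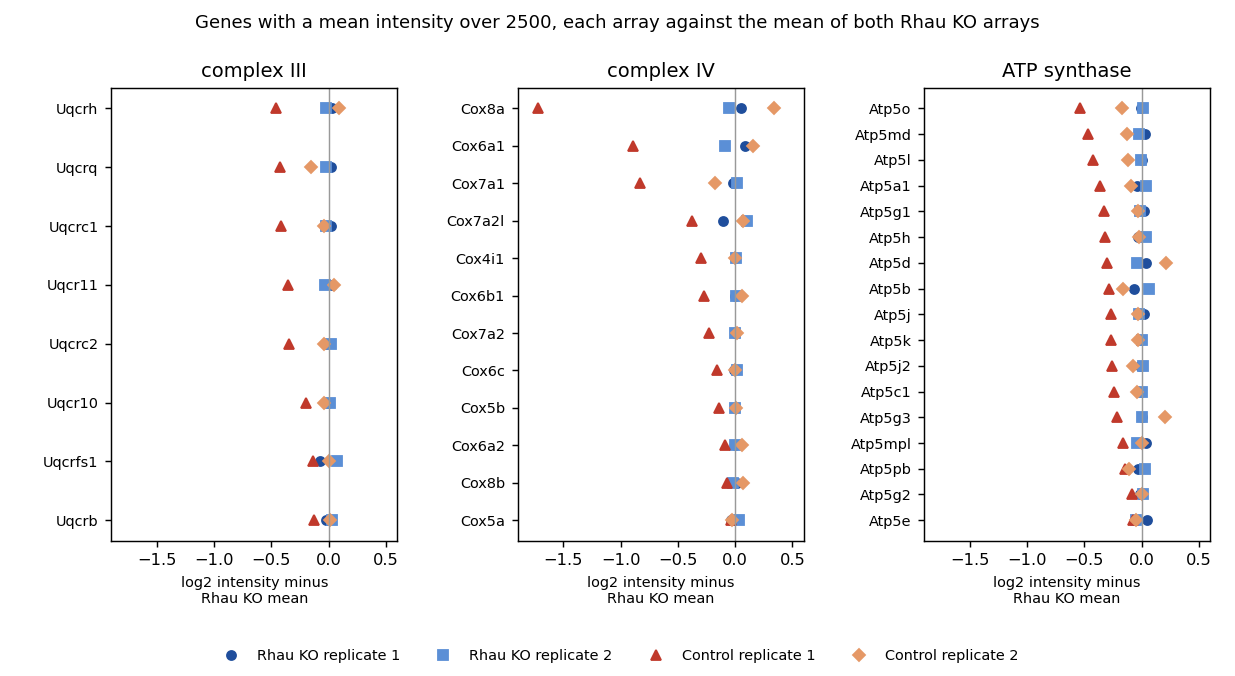
Log2 intensity of the 37 members with a mean intensity over 2500, on each array minus the mean of the 2 arrays labelled Rhau KO (x axis, log2 units), by complex and ordered by Control replicate 1. Control replicate 1 is the lowest array for 36 of the 37, from Cox8a at the left to Cox5a, the exception, where Rhau KO replicate 1 is lowest.

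Across the 42 members, 41 were lowest on Control replicate 1, as were 40.0% of all genes, 46.9% of the brighter ones and 64.9% of the 151 other genes among the brightest 1%, a class looked at because 31 of the 42 members lie in it. Cox5a, at 41439, 43350, 41443 and 41663, was the exception. The size of the shift was modest, with a median of -0.30 on the log2 scale over the members, -0.09 over all genes and -0.19 over the other brightest genes. At least 2-fold lower on Control replicate 1 were 2 of the 42, Cox8a and the dim Cox7b2, where 18.0% of all genes and 5.30% of the other brightest genes were. The 3 arrays other than Control replicate 1 read the members closely, with the highest within 1.2-fold of the lowest for 36 of 42, against 23.1% of all genes and 80.8% of the other brightest genes. Their median ratio of highest to lowest was 1.07 for members, 1.47 for all genes and 1.09 for the other brightest genes. The highest intensity on an array was 57955 to 60981, and 37 of the 42 members had a mean over 2500.

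By label, 0 of 42 members passed the adjusted threshold of 0.05 in limma, as did 0% of the 18193 genes, and adjusted p ran from 0.873 to 0.996. At an unadjusted p under 0.05 there were 0 members by limma, where 4.31% of all genes passed. By the methods' t-test there were also 0, but the share of all genes that passed it was not counted. With a fold of at least 2 added, the thresholds of the study, 0 members passed and 3.29% of genes did. Both arrays labelled Rhau KO lay above both Control arrays for 19 members, 4 of complex III, 3 of complex IV and 12 of ATP synthase, as they did for 21.7% of all genes and 39.7% of the other brightest genes. They lay below both for 0 members, 14.6% of genes and 15 of the 151. All 42 log2 differences were above 0 on the deposited scale, against 56.9% of genes and 107 of the 151 other brightest genes, but only 38 were with quantile normalization or after averaging the probe sets of each gene, 27 with each array centred on its median and 24 without Control replicate 1. The median over the members was 0.15, over all genes 0.09 and over the other brightest genes 0.13. Centring moved the median of all genes by -0.12, and the members' median exceeded that of all genes by 0.06 on either scale.

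Against Control replicate 2 alone, the differences lay on both sides of 0. The median log2 difference was 0.03 for the members and 0.03 for all genes, 24 members were above 0 (as were 52.8% of all genes) and 18 below, and the range was -0.34 to 0.39. By complex, 4 genes of complex III were above 0 and 4 below (median 0.02), 7 of complex IV above and 10 below (median -0.02), and 13 of ATP synthase above and 4 below (median 0.04). No member passed the adjusted threshold in that comparison (0.819% of genes did, with the lone Control array assumed to vary like the others). At an unadjusted p under 0.05 there was 1 member, Cox8a, which was 1.27-fold lower in Rhau KO (log2 difference -0.34, SE 0.10, adjusted p = 0.241 by limma), where 13.3% of genes passed. Against Control replicate 1 alone the outcome was different, again with the lone Control array assumed to vary like the others. There, 15 of 42 members passed the adjusted threshold by limma, all higher in the arrays labelled Rhau KO, where 22.5% of all genes passed in either direction and 13.5% in that one. Cox8a led with a log2 difference of 1.72 (SE 0.10, adjusted p = 0.000446 by limma), followed in size among the brighter members by Cox6a1 at 0.89 and Cox7a1 at 0.83. The other 12 were Uqcrc1, Uqcrc2, Uqcrq, Uqcrh and Uqcr11 of complex III, the dim Cox7b2, and Atp5a1, Atp5g1, Atp5h, Atp5l, Atp5md and Atp5o of ATP synthase. Among the muscle forms, Cox7a1 was thus in that count, whereas Cox6a2 (log2 difference 0.09) and Cox8b (0.07) stayed outside it. The median log2 difference against Control replicate 1 was 0.30 for the members, 0.11 for all genes and 0.20 for the other brightest genes. Most members are far brighter than most genes, and the share that passed among the other brightest genes was not counted. This comparison uses the array on which most fast skeletal markers were high and most cardiomyocyte markers low. Tissue and genotype cannot be told apart in it.

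**Figure D5:**
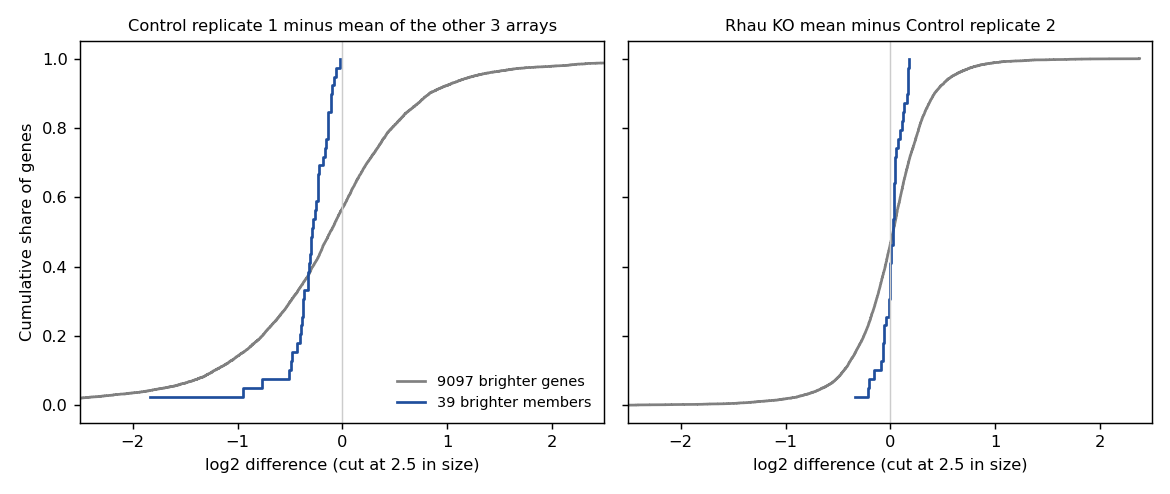
Cumulative share of the 39 brighter members (blue) and of the 9097 brighter genes (grey) by log2 difference (x axis, shown to 2.5 in size): Control replicate 1 minus the mean of the other 3 arrays at the left, Rhau KO mean minus Control replicate 2 at the right. All 39 members lie below 0 at the left, and at the right the members span a narrow range around 0.

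Other genes of the same pathways were listed by function, and 0 of them passed the adjusted threshold. Their counts stand beside the shares of all genes, 56.9% with a positive log2 difference and 4.31% at an unadjusted p under 0.05. Of 7 further subunits and assembly factors of complex III, 5 had a positive and 2 a negative log2 difference by label, and 0 passed an unadjusted p of 0.05. Bcs1l, which inserts the iron-sulfur protein, read 1529 and 1602 on the arrays labelled Rhau KO and 1228 and 1216 on the Control arrays, and Uqcc1, which serves cytochrome b, read 2664, 2263, 1586 and 2209. Of 24 measured genes of complex IV assembly, 14 were positive and 10 negative, and 1 passed an unadjusted p of 0.05. This was Higd1a, a small inner membrane protein that binds the enzyme, at 14413 and 14293 against 9939 and 10135, a difference of 0.52 (SE 0.18, adjusted p = 0.873 by limma). Its gap was as wide against Control replicate 2 alone (0.50), and Coa7, an assembly factor, read 548 and 644 against 1168 and 789. Complex II, which feeds electrons from succinate, had 6 positive of 6, of which Sdhaf2, the factor that attaches its flavin, passed an unadjusted p of 0.05 at 2726 and 3033 against 1808 and 2027 (difference 0.59, SE 0.20, adjusted p = 0.873 by limma). Sdhc, its membrane anchor, read 7444 and 8001 against 5700 and 6402. Of 5 measured genes listed for ATP synthase assembly and regulation, 5 were positive and 0 passed an unadjusted p of 0.05. That list included Foxred1, a factor for the assembly of complex I, at 1175, 1067, 363 and 826. Atpaf2, which helps build the head, read 601, 766, 446 and 466. Atpif1, the protein that inhibits ATP synthase and named here after its values were seen, read 8951, 13450, 1325 and 11970. It was 8.53-fold lower on Control replicate 1, a wider gap than for any of the subunits above apart from Cox7b2, whose value there lies among the dimmest. Cycs, cytochrome c itself, read 56760, 58848, 51673 and 53146.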

How the data were processed

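RNA of 4 arrays, 2 labelled Rhau KO and 2 labelled Control, was measured on Affymetrix mouse genome arrays. The authors normalized the scans by MAS 5.0 in GeneSpring 11.0 and deposited linear intensities, whose 2% trimmed mean is 500 on each array. Detection calls were not used here. Of 45101 probe sets, 64 controls were left out, 34945 of the rest carried 1 gene symbol, 932 several and 9160 none. Log2 intensities (no pseudocount) of the groups were compared in limma 3.58.1 (lmFit, then eBayes with a trend; R 4.3.3), Rhau KO minus Control, with Benjamini-Hochberg adjustment over all 18193 genes. The code was tested on simulated data. Isoform ratios were compared by exact permutation. Named in full were the isoform families, the 4 genes of smallest p in each complex, and up to 2 per pathway list. Members and lists were chosen with earlier results of these data known. Marker lists for adipocytes, brown adipocytes, fibroblasts, macrophages, erythroid cells and slow skeletal muscle were also read. On Control replicate 1 at least 2-fold higher were 2 of 3, 3 of 5, 2 of 5, 0 of 4, 0 of 2 and 2 of 3 of them, and at least 2-fold lower 0, 2, 0, 1, 2 and 1. Of all genes, 18.0% were at least 2-fold lower there. Alternatives were quantile normalization, median centring, a pseudocount of 32, brighter genes only, all probe sets of a gene (mean or singly), eBayes with no trend, a replicate block, the methods' t-test and each array left out. The number of arrays limits the precision.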

Additional observations from a re-analysis of the deposited data

How the results depend on the processing

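The count of members past the adjusted threshold was 0 under every alternative except the one without Control replicate 2, so it ran from 0 to 15 with each array left out in turn. At a fold of 2 with an unadjusted p under 0.05 that range was 0 to 2, and with every probe set taken singly 1 passed, a dim probe set of Atp5g1. The median difference of the members ran from 0.03 to 0.30 with an array left out. Leaving out each array in turn, the group difference of Cox6a2 minus Cox6a1 ran from -0.80 to 0.10 and that of Cox8b minus Cox8a from -1.65 to 0.27, both changing sign without Control replicate 1. The same range was -0.061 to 0.092 for Cox6a2, -0.16 to 0.89 for Cox6a1, -0.017 to 0.23 for Cox7a2, -0.068 to 0.075 for Cox8b and -0.34 to 1.72 for Cox8a. It was -0.047 to 0.74 for Cox4i2, -0.060 to 0.27 for Cox6b1, -0.072 to 0.38 for Cox7a2l, -0.30 to 4.91 for Cox7b2, -0.0004 to 0.080 for Atp5g2, -0.20 to 0.21 for Atp5g3 and -0.090 to 0.46 for Uqcrh, and the 12 genes named with such a range were below 0 without Control replicate 1. Quantile normalization turned Cox6a2 (-0.017), Cox8b (-0.011) and Atp5g3 (-0.026) below 0. Median centring did so for Cox6a2 (-0.11), Cox7a2 (-0.018), Cox8b (-0.12), Cox6b1 (-0.018), Atp5g2 (-0.084) and Atp5g3 (-0.12), and the mean of all probe sets for Cox6a2 (-0.10) and Atp5g2 (-0.36). Cox8b also turned without Rhau KO replicate 1. The causes of these changes were not tested.

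Deviations of same-numbered arrays were nearly uncorrelated over genes (correlation 0.00603). The Control arrays differed widely in heart and skeletal muscle transcripts, which could hide a smaller shared deviation. This correlation therefore cannot decide whether the replicate numbers pair the samples. With the number as a replicate block, 0 members passed, the median difference was 0.15 and the lowest adjusted p was 0.969 by limma. Most members, Cox6a2 and Cox8b among them, lie near the top of the intensity range, and Cox4i2, Cox6b2 and Cox7b2 lie low in it, which limits what either can show.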
